A study of Mus musculus with 6 samples.

Results

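The genes described are 9 members of the Hedgehog pathway, *Shh*, *Ptch1*, *Smo*, *Gli1*, *Gli2*, *Gli3*, *Hhip*, *Sufu* and *Gas1*. They were found by name in a table of 19270 genes, and all 9 were present. The table comes from bulk RNA-seq of the proximal mouse incisor, in which all RNA of a dissected piece of tissue is sequenced together, in 3 control and 3 *Arid1b* mutant mice. *Arid1b* encodes a subunit of the BAF chromatin remodelling complex, and the comparison asks how its loss in the *Gli1*+ lineage alters the transcriptome. Mutants were *Gli1-CreER;Arid1bfl/fl* mice collected 4 days post-tamoxifen at the age of 1 month. Controls had the same induction, time and age; the labels call them wild type, while the study's methods give *Arid1bfl/fl* mice. CreER is a Cre recombinase that acts only in the presence of tamoxifen, and in this line it is expressed from the *Gli1* locus, so deletion is limited to cells that express *Gli1* and to their descendants. The tissue is described in the methods as mesenchyme dissected from the proximal end.

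Hedgehog signaling begins when a secreted ligand such as SHH binds the receptor PTCH1, which otherwise holds the transducer SMO inactive. Active SMO, at the primary cilium, releases the GLI transcription factors from SUFU, and the GLI factors then switch on targets that include *Gli1*, *Ptch1* and *Hhip* themselves. In the continuously growing mouse incisor the dental epithelium and the nerve-vessel bundle are known sources of SHH, and *Gli1* marks mesenchymal stem cells around that bundle.

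Each gene has 1 mean per group, a normalized signal averaged over 3 libraries, so the spread between mice could not be computed and no test was run. The p-values of the authors' own comparison were not used, and each comparison is the ratio of the mutant mean to the control mean. A gene was counted as past the fold when this ratio was above 1.5 or below its inverse. Libraries held an estimated 37123643 to 49594469 reads, and each member rested on an estimated 4160 reads (*Gli2*, controls) to 95185 reads (*Ptch1*, mutants) per group. The 95% exact binomial (Clopper-Pearson) intervals given with the ratios cover counting error only, and the variation between animals comes on top of them.

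The deleted gene was examined first. *Arid1b* (chr17:4994332-5347656, GRCm38) had a mean of 97.6 in controls and 38.0 in mutants, a ratio of 0.390 (log2 -1.36). The mutant group therefore carried less *Arid1b* RNA, as its label states, and part of the transcript remained in this mixed tissue.

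The groups also differed in sex-linked transcripts, for which the labels give no sex. *Xist*, made from the inactive X chromosome, had a mean of 3368 in controls and 814 in mutants. The Y-linked *Ddx3y*, *Uty*, *Kdm5d* and *Eif2s3y* were in controls all under a floor of 0.103, the signal of 3 reads per library, and were at 65.3, 29.8, 27.4 and 25.3 in mutants. Sex and genotype cannot be told apart in these means, and the part of sex in the Hedgehog results was not tested.

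Of the 9 Hedgehog genes, 3 had a higher mean past the fold in mutants (*Shh*, *Gas1* and *Hhip*), 1 had a lower one (*Gli1*) and 5 lay within the fold (*Ptch1*, *Smo*, *Gli2*, *Gli3* and *Sufu*). Among all genes, 7.37% were higher and 5.8% lower past the same fold. All 9 members had a mean of at least 10 over both groups, and among the 10311 genes at that level the shares were 2.15% higher and 0.912% lower. The shares of members past the fold were above these backgrounds in both directions, which is a description of 9 chosen genes and not a test. The median log2 ratio of the members was 0.012, beside 0.0022 over all genes, with single members from -1.21 (*Gli1*) to 0.75 (*Shh*).

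**Figure D1:**
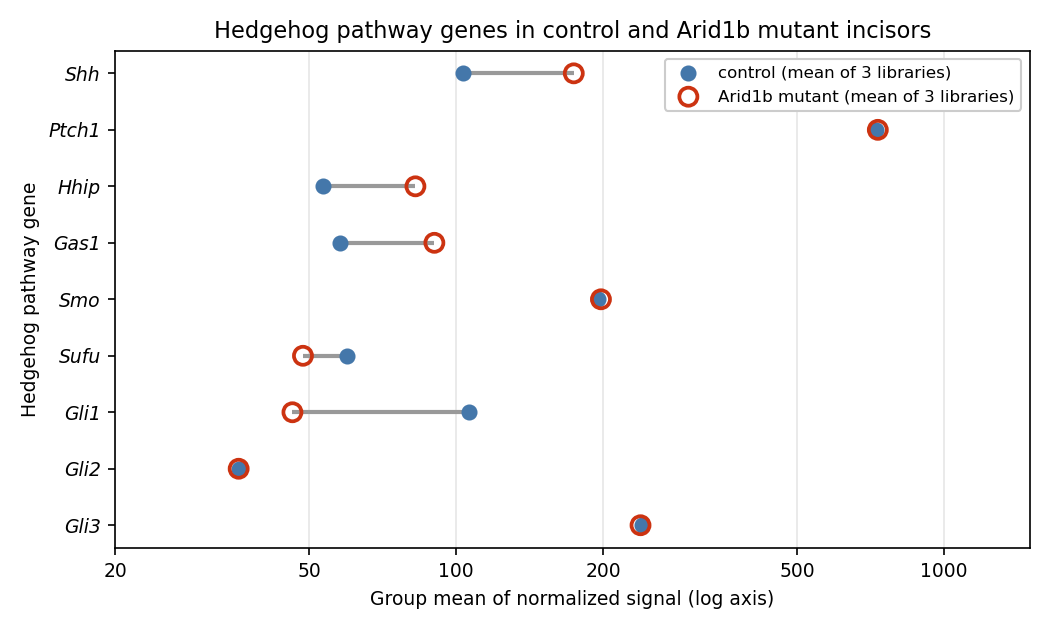
Group means of the 9 Hedgehog pathway genes in normalized signal on a log axis, with filled points for the mean of 3 control libraries, open circles for the mean of 3 mutant libraries and a line joining them; no error bars are drawn because each gene has 1 mean per group. *Gli1* is the member whose mutant mean lies furthest below its control mean (106 against 46.1), and *Ptch1*, *Smo*, *Gli2* and *Gli3* have circles that cover their points.

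*Shh*, the secreted ligand (chr5:28456815-28467256), had a mean of 103 in controls and 174 in mutants. The ratio was 1.69 (counting interval 1.65 to 1.73, log2 0.75). It was the member with the highest ratio, and 133 of the 10311 genes at a mean of 10 or more, *Shh* included, had a ratio as high or higher.

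Dental epithelium makes *Shh* in the tooth, and most listed markers of that tissue were also higher in mean in mutants. Of 12 epithelial markers, 10 had a higher mean past the fold and none a lower one, beside 7.37% and 5.8% of all genes, with a median log2 ratio of 1.18, and their summed signal was 1588 in controls and 10291 in mutants. The most abundant over both groups was *Amelx*, which encodes the enamel protein amelogenin, at 362 and 3946, although *Ambn*, another enamel gene, was above it in controls (617, and 3360 in mutants). Genes of epithelial cells in general had log2 ratios of 0.78 (*Epcam*), 0.85 (*Cdh1*), 1.01 (*Krt14*), 1.22 (*Krt5*), 1.23 (*Krt17*) and 2.09 (*Krt15*), beside the 0.75 of *Shh*. The 2 markers within the fold, both low in signal, were *Odam* (1.33 and 1.97, log2 0.56) and *Klk4* (1.49 and 1.21, log2 -0.31). None of the 12 markers was at the floor in either group, so epithelial RNA was present in both although the dissection was described as mesenchymal. The part of epithelial tissue in the *Shh* result was not tested, and in bulk RNA a different number of cells of a type and a different amount of RNA per cell cannot be told apart.

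The other genes for ligands and their release behaved less uniformly. Of 8 listed, 7 were in the table, and 2 (*Shh* and *Scube2*) had a higher mean past the fold with a list median of 0.015, beside 7.37% of all genes. *Scube2* lies under a mean of 10, and among genes at or above it, where the share is 2.15%, *Shh* was the 1 gene of the list past the fold. *Dhh*, the desert Hedgehog ligand, had low means of 2.29 in controls and 2.30 in mutants. *Disp1*, needed to release the lipid-bearing ligand from its cell, had means of 23.8 and 24.1, a log2 ratio of 0.015. Of the 2 ligand genes analysed here, *Shh* differed in mean between the groups and *Dhh* had nearly the same mean in both. Among the secreted SCUBE proteins that help ligand release, *Scube1* had a mean of 383 in controls and 275 in mutants (log2 -0.48). *Scube3* had means of 276 and 309.8 (log2 0.17), and *Scube2*, at a much lower signal, had means of 5.41 and 8.76 (log2 0.69). The 3 genes of this family therefore had ratios on both sides of 1.

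*Ptch1*, the receptor and a standard target of the pathway (chr13:63508328-63573598), had a mean of 726 in controls and 732 in mutants. The ratio was 1.01 (counting interval 0.999 to 1.02), with 1 inside the interval. As deposited, *Ptch1* thus differed by less than its counting error, but the small difference depends on the scaling: the log2 ratio was 0.012 as deposited, 0.072 with both groups scaled to the same sum and 0.19 relative to dental mesenchyme markers, the last 2 beyond the counting error.

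*Hhip*, a membrane protein that binds Hedgehog ligands and limits their range (chr8:79965851-80058006), had a mean of 53.4 in controls and 82.5 in mutants. The ratio was 1.54 (log2 0.63), with a counting interval from just under the fold to 1.59, so as deposited *Hhip* was past the fold by less than its counting error. Of these ligand-binding targets, *Hhip* was higher in mean past the fold and *Ptch1* was not.

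*Gas1*, a co-receptor that binds ligand together with PTCH1 (chr13:60174405-60177365), had a mean of 57.7 in controls and 90.2 in mutants. The ratio was 1.56 (counting interval 1.52 to 1.61, log2 0.64). Its partner co-receptors *Cdon* and *Boc* had log2 ratios of 0.47, from means of 13.8 and 19.2, and of 0.13, from means of 16.3 and 17.8. The 3 co-receptor genes had a ratio above 1, as had 9731 of all 19270 genes, and of the 3 *Gas1* was past the fold. When values were taken relative to dental mesenchyme markers *Cdon* joined it. That scaling raised the number of all genes higher past the fold from 1421 to 2120. Over the receptor and co-receptor list, 7 of 8 were in the table, 2 were higher past the fold (*Gas1* and *Hhip*), none was lower and the median log2 ratio was 0.13. At this level 2.15% of genes were higher and 0.912% lower, so the absence of a lower gene is near the background.

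*Smo*, the transducer (chr6:29735503-29761365), had a mean of 195 in controls and 198 in mutants, a ratio of 1.02 (counting interval 0.998 to 1.03). *Sufu*, the inhibitor that holds GLI proteins in the cytoplasm (chr19:46396896-46488804), had a mean of 59.8 in controls and 48.5 in mutants. Its ratio was 0.812 (counting interval 0.784 to 0.840, log2 -0.30), inside the fold but with 1 outside the counting interval. *Sufu* was lower in mean by 18.8% as deposited. With both groups scaled to the same sum *Sufu* had a log2 ratio of -0.24, and relative to dental mesenchyme markers one of -0.13. As deposited it was the only one of the 5 members within the fold whose counting interval left out 1, but with both groups scaled to the same sum those of *Ptch1*, *Smo* and *Gli3* did so too, on the higher side, and relative to dental mesenchyme markers also that of *Gli2*. The 15 listed intracellular regulators, *Sufu* included, were all within the fold with a median log2 ratio of -0.024, and so were all 15 genes of transport in the primary cilium, with a median of -0.070. Of the 10311 genes with a mean of 10 or more, 9995 were within the fold, so these counts are near the background. Both medians changed sign relative to dental mesenchyme markers, to 0.15 for the regulators and 0.10 for the cilium genes. With both groups scaled to the same sum that of the regulators was 0.036. The members past the fold were the ligand, 2 of its binding proteins and *Gli1*.

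The GLI factors separated into 2 that had nearly equal means and 1 that did not. *Gli2*, the main activator early in signaling (chr1:118834132-119053619), had a mean of 35.9 in controls and 35.8 in mutants, a ratio of 0.998 (counting interval 0.956 to 1.04). *Gli3*, which serves mainly as a repressor when ligand is absent (chr13:15463235-15730026), had a mean of 241 in controls and 239 in mutants, a ratio of 0.993 (counting interval 0.977 to 1.01). Both intervals include 1 as deposited.

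*Gli1*, an activator that is itself switched on by the pathway (chr10:127329882-127341974), had a mean of 106 in controls and 46.1 in mutants. The ratio was 0.434 (counting interval 0.420 to 0.447, log2 -1.21), a mean lower by 56.6%. Among the same 10311 genes, 13 had a ratio as low or lower, *Gli1* included. Relative to the median of the other 8 members the log2 ratio of *Gli1* was -1.22, and it lay outside their range of -0.30 to 0.75.

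The listed target genes give the same contrast. Apart from *Gli1*, 9 targets had log2 ratios from -0.38 (*Bcl2*) to 0.63 (*Hhip*) with a median of 0.10, and relative to that median *Gli1* was at -1.31. *Foxf1*, a forkhead factor induced by Hedgehog signals in mesenchyme, had a mean of 108 in controls and 107 in mutants. *Ccnd1*, which encodes the cell cycle regulator cyclin D1, had means of 246 and 264, and its relative *Ccnd2* had means of 422 and 487. Over all 10 targets, 1 was higher past the fold (*Hhip*) and 1 was lower (*Gli1*), beside 7.37% and 5.8% of all genes. Of the 10 targets, 9 reached a mean of 10, *Hhip* and *Gli1* included, and at that level the shares were 2.15% and 0.912%. The absence of another lower target is therefore near the background. The values of the other targets show only that their ratios lay above that of *Gli1*.

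*Gli1* is also the gene that carries the CreER allele in the mutants, and no group here carried that allele with *Arid1b* intact. For *Gli1* RNA, the effect of the allele and the effect of losing *Arid1b* cannot be told apart. The labels do not say whether the mutants had 1 or 2 copies of the allele.

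The neighbors of *Gli1* on chromosome 10 were compared as genes at the same locus that carry no inserted sequence. The 5 genes on either side with a mean of at least 10 were *Pip4k2c*, *Kif5a*, *Dctn2*, *Mbd6* and *Mars1* on the one side and *R3hdm2*, *Shmt2*, *Lrp1*, *Stat6* and *Nab2* on the other. Their ratios ran from 0.814 (*Lrp1*) to 1.05 (*Pip4k2c*), and none of the 10 was past the fold; with 2.15% higher and 0.912% lower among genes of this level, that count is near the background and is no result about the locus. *Mars1*, the nearest at 18.1 kb, had a mean of 44.0 in controls and 44.8 in mutants. *R3hdm2*, the nearest on the other side at 38.4 kb, had means of 81.8 and 81.8. Several neighbors had a mean somewhat lower in mutants, *Lrp1* (635 and 517) and *Nab2* (47.1 and 40.2) the most, and none came near the ratio of *Gli1*.

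**Figure D2:**
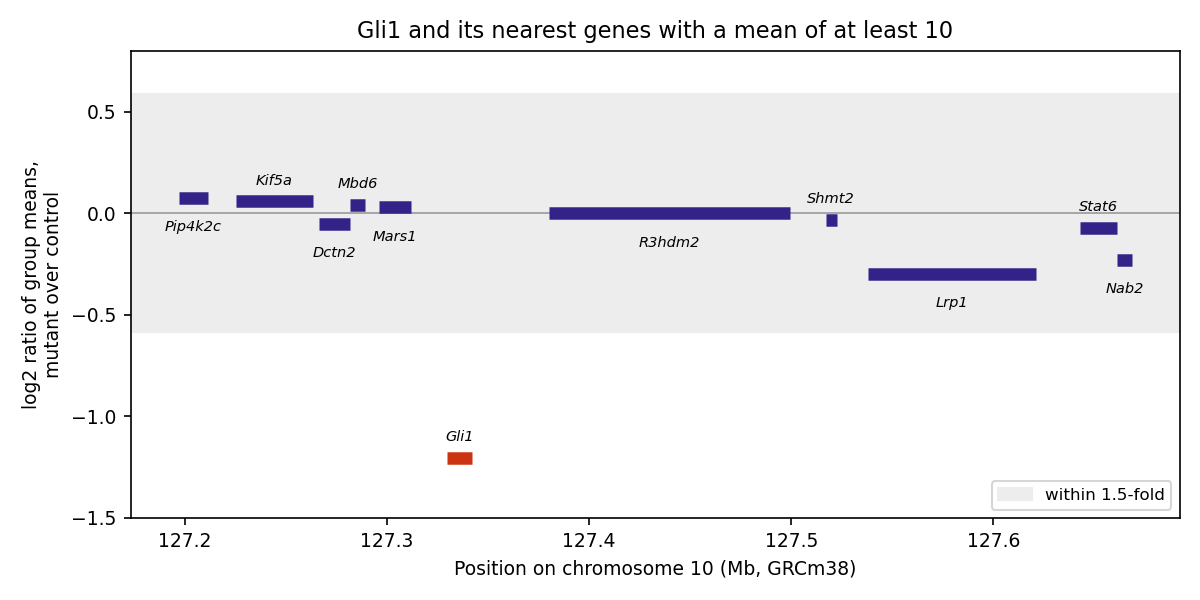
Log2 ratio of the mutant to the control mean for *Gli1* (red) and the 5 nearest genes on either side with a mean of at least 10 (blue), drawn as bars from gene start to gene end along chromosome 10 in Mb (GRCm38), with the range within the 1.5-fold shaded. *Gli1* is at -1.21 and its 10 neighbors lie between -0.30 and 0.076.

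Levels of different members were compared as signal per kb of merged exon. In controls the order was *Ptch1* (51.2), *Shh* (36.3), *Smo* (34.7), *Gli3* (25.1), *Gli1* (21.3), *Gas1* (19.5), *Sufu* (7.77), *Hhip* (5.89) and *Gli2* (5.22). In mutants it was *Shh* (61.2), *Ptch1* (51.6), *Smo* (35.2), *Gas1* (30.5), *Gli3* (24.9), *Gli1* (9.24), *Hhip* (9.09), *Sufu* (6.31) and *Gli2* (5.21). With this length *Smo* and *Gli2* had the same rank in both groups and the other 7 did not. *Shh* and *Smo* in controls, and *Gli1* and *Hhip* in mutants, were neighbors in level whose order cannot be secured without the spread between mice; with the length of the longest transcript *Smo* stood above *Shh* in controls, *Ptch1* (70.5) above *Shh* (61.2) and *Sufu* (10.7) above *Hhip* (9.09) in mutants, and 5 members differed in rank between the groups.

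Within the GLI family the make-up of the RNA differed between the groups. Per kb, *Gli1* gave 41.3% of the summed GLI signal in controls and 23.5% in mutants, while *Gli3* gave 48.6% and 63.3% and *Gli2* gave 10.1% and 13.2%. The sum itself was 51.6 per kb in controls and 39.3 in mutants. The ratio of *Gli3* to *Gli2* was 4.80 in controls and 4.78 in mutants, whereas that of *Gli3* to *Gli1* was 1.18 and 2.69, so the difference in make-up came from *Gli1*.

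**Figure D3:**
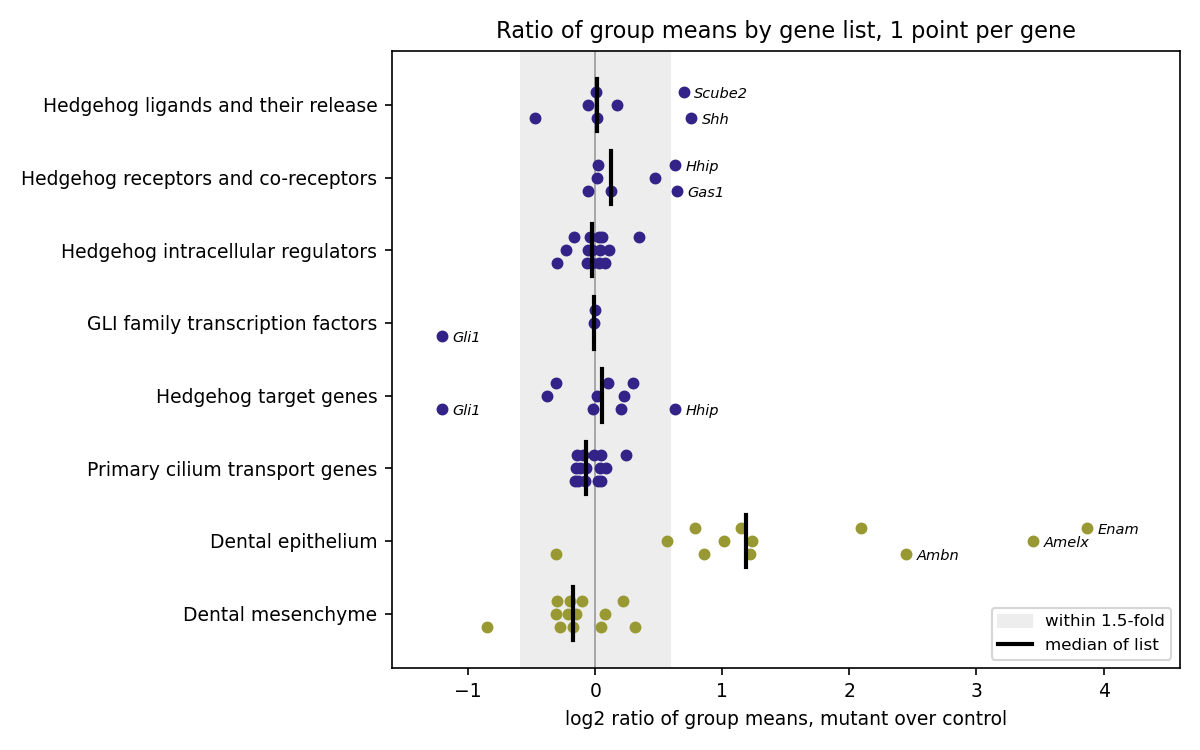
Log2 ratio of the mutant to the control mean for genes of the Hedgehog and cilium lists (dark blue) and of the epithelial and mesenchymal marker lists (olive), 1 point per gene, with the list median as a black bar and the range within the 1.5-fold shaded; points are offset vertically for legibility. *Gli1*, at -1.21, lies apart from the other Hedgehog genes, and the epithelial markers have a median of 1.18.

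Promoter sequence was looked at because *Hhip* and *Ptch1*, both ligand-binding targets of the pathway, had different ratios. RefSeq windows of GRCm38.p6, from 250 bases before to 50 bases after a gene's start, were found for 7 of the 9 members, and *Shh* and *Gli1* are named only. The GLI-binding motif GACCACCCA, or TGGGTGGTC on the other strand, was in 0 of the 7 with no mismatch or with up to 1, against 0.253% and 6.74% of all 32851 windows. With up to 2 mismatches it was in 3 of 7 (*Smo*, *Gli2* and *Hhip*), against 58.3% of all windows, so these short windows did not set the members apart by this motif. The absence of a match says only that these letters are not in the window. The GC box GGGCGG, a motif bound by SP factors, was searched for after the GLI motif had given no match. On either strand (CCGCCC in reverse) it was in 6 of 7 windows, against 35.7% of all. The windows of the members had a GC content of 56.3% (*Sufu*) to 76.3% (*Ptch1*), beside a median of 52.7% over all windows. The 250 bases before the start are shown for both genes, 5′ to 3′ on the minus strand of GRCm38.p6, with GC boxes in capitals. That of *Hhip* (chr8:80058009-80058258) lies just before the annotated gene, and that of *Ptch1* (chr13:63565736-63565985) lies inside the span of the gene, before the start of a shorter transcript, with 0 bases in its annotated exons.
Hhip: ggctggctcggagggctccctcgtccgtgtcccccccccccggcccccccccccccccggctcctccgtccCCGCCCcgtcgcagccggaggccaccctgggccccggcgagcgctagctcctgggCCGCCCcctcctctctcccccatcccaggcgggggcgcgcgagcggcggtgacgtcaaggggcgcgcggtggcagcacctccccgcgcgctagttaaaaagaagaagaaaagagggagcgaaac
Ptch1: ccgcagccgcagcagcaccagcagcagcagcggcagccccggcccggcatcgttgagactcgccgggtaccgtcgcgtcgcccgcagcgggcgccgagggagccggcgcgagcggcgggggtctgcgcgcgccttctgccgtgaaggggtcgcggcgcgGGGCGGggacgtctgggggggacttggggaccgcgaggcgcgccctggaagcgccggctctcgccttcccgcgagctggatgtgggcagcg
*Hhip* had 2 GC boxes and *Ptch1* had 1, which is a description of the sequences and bears on no binding.

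Some member transcripts overlap genes on the opposite strand, and whether reads were counted by strand is not given in the sources used here. The exons of *Gli1* share 62 bases with *Arhgap9*, which had low means of 2.24 and 2.40, and 265 bases with *Gm47200*. Those of *Shh* share 446 bases with *9530036O11Rik*, at 0.112 in controls and 0.298 in mutants, and 361 bases with *Gm26894*. *Gli3*, *Hhip* and *Gas1* also share 188, 175 and 589 bases with *Gm6556*, *Gm27820* and *Gm48488*. The overlapping genes with a value in the table were far below the members in signal, and reads from the shared bases cannot be assigned to a strand.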

How the data were processed

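RNA of the proximal incisor from 3 control and 3 mutant mice was sequenced. Trimming, alignment to mm10 and the comparison of groups were done by the authors in Partek Flow; the submitters' processing notes also name TopHat2 2.0.8. Counting, annotation, strand and model are not given in the sources used here. The deposited values are a normalized signal, 1 mean per gene and group, scaled by the authors to an upper quartile of about 44.6 in each library. They were taken as reads plus 1 times a factor per library, inferred from the lowest values, from which reads were estimated: 39868312, 39556420 and 39087724 in controls 1 to 3 and 49594469, 42625066 and 37123643 in mutants 1 to 3. The 4 columns of the authors' own comparison (p-value, FDR, ratio and fold change) were not used, nor was a table of genes chosen by them, nor 4 columns of the summary per library.

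Ratios of group means and their log2 were computed with no pseudocount (Python 3.11.15 with numpy 2.4.6, pandas 2.3.3 and scipy 1.17.1; matplotlib 3.10.9 for figures). The calculation was run on simulated data that held counting error only, with changes well past the fold. That run checks the arithmetic and says nothing about variation between mice or about ratios close to the fold. The fold of 1.5 is that of the study's methods. The planned limma test needed values per gene and library and was not run. The floor of a group is the signal of 3 reads per library. Coordinates and exon lengths are from GENCODE M21 (GRCm38, the same assembly as mm10), where 18825 of 19270 gene names matched a single gene, and *Mars1* was matched through a RefSeq synonym. Genes named were the 9 members, *Arid1b*, listed genes past the fold with a mean of at least 10, the most abundant marker of each cell type list and the neighbors of *Gli1*; any further gene was picked once its values were known. A listed gene is not reported here and was left out of the lists. The members and lists were chosen with earlier results of these data known. Other pseudocounts, scalings, folds, filters and lengths were tried.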

Additional observations from a re-analysis of the deposited data

How the results depend on the processing

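Under 5 other treatments of the means (1 added to both, the lowest mean subtracted, groups scaled to the same sum, centering on genes whose mean was 10 or more, and values relative to the dental mesenchyme list) all 9 members kept their side of the fold. At the signal of the members, adding 1, subtracting the lowest mean or centering hardly moved a ratio. Equal sums and the mesenchyme list shift every ratio upward, so they could not bring *Shh*, *Gas1* or *Hhip* back within the fold. This outcome was therefore largely fixed in advance. The sign changed for *Gli2* and *Gli3*, both near 0, with equal sums and relative to the mesenchyme list, which by construction shift every log2 ratio by 0.061 and 0.17. *Gli1* was then at -1.14 and -1.03, and the median of the members at 0.072 and 0.19. Of all genes past the fold, 56.0% were higher as deposited (1421 higher, 1117 lower), 62.3% with equal sums and 73.8% relative to the mesenchyme list (2120 higher, 752 lower).

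At a fold of 2, 0 members, 0 ligand and release genes, 0 receptor and co-receptor genes and 0 targets were higher, and *Gli1* was still lower. At a fold of 5 to 4, 1 ligand and release gene (*Scube1*) and 2 targets (*Gli1* and *Bcl2*) were lower, and 1 intracellular regulator (*Efcab7*) and 3 receptor and co-receptor genes (*Cdon* added) were higher, as were these 3 relative to the mesenchyme list. The shares of all genes past a fold of 2 or of 5 to 4 are not given here. The counts at these folds therefore cannot be set against a background. With a mean of at least 10, 1 ligand and release gene was higher, since *Scube2* lies under that mean; no skeletal muscle gene was left. With the longest transcript 2 of the 9 ranks by level changed in controls and 4 in mutants.

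No paired analysis was possible because the files used hold no value per gene and library, and leaving out each replicate could not be run for the same reason. The counting intervals do not hold the variation between mice, which is not measured here.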

Other observations

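Markers of other cell types were counted beside the Hedgehog genes, and their part in the member results was not tested. Past the fold were 7.37% of all genes on the higher and 5.8% on the lower side, and 2.15% and 0.912% of those with a mean of at least 10, so a count of 0 is near the background. Of 13 dental mesenchyme markers, 1 (*Barx1*, at 0.932 and 0.516) was lower past the fold, at a signal under 10, and the median log2 ratio was -0.17; the most abundant, *Col1a1*, had means of 21211 in controls and 17127 in mutants. The odontoblast list had 2 of 7 genes lower past the fold, *Dmp1* (68.1 and 23.7) and *Col24a1* (58.8 and 33.3), with a median of -0.32, and its most abundant gene *Dspp* was at 5179 and 4136. All 7 had a ratio below 1, as had 9539 of all 19270 genes.

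In the list for the stem cell region, 2 of 5 genes were higher past the fold, *Bcl11b* (33.6 and 52.6) and *Igfbp6* (6.04 and 9.60), with a median of 0.50, and the most abundant, *Cspg4*, was at 67.3 and 59.6. With a mean of at least 10 that median turned to -0.17 and 1 gene, *Bcl11b*, was past the fold. All 7 proliferation genes, with a median of 0.37, had a ratio above 1, as had 9731 of all 19270 genes. Of the 7, 1 was past the fold, *Ccnb1* (22.9 and 35.6), and *Mki67*, the most abundant, was at 177 and 209. The proliferation count was 2 with equal sums or relative to the mesenchyme list and 4 at a fold of 5 to 4. No share of all genes is given here for that lower fold, so the count of 4 cannot be set against a background. Among pericyte and smooth muscle genes, 1 of 6 was higher past the fold, *Tagln* (28.3 and 51.8), with a median of 0.075, and *Rgs5*, the most abundant, was at 411 and 340.1; relative to the mesenchyme list 2 were past the fold. None of 6 endothelial genes was past it, with a median of 0.029 and *Cdh5*, the most abundant, at 95.2 and 94.4. None of 6 macrophage and leukocyte genes was past it either, with a median of 0.24 and *Lyz2*, the most abundant, at 126 and 132. All 6 had a ratio above 1, as had 9731 of all 19270 genes. The Schwann cell list had 1 of 7 higher, *S100b* (1.18 and 1.83), with a median of -0.055 and its most abundant gene *Pmp22* at 118 and 113; the median turned to 0.0056 with equal sums, 0.12 relative to the mesenchyme list and 0.065 with a mean of at least 10. Skeletal muscle genes had summed signals of 6.78 in controls and 5.99 in mutants, the most abundant over both groups being *Acta1* at 2.50 and 1.12, with 1 of 6 higher (*Myh4*, 0.552 and 2.06) and 3 lower past the fold and a median of -0.56. With equal sums, or relative to the mesenchyme list, 1 muscle gene was lower past the fold, and with 1 added to both means the median was -0.20.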
